A study of Mus musculus with 4 samples.

Results

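The tropomyosins are described here as the 4 rows of the deposited table named Tpm1, Tpm2, Tpm3 and Tpm4, out of 54446 rows. All 4 passed the filter for testing, a mean of 1 FPKM. The members were taken by gene name, but the family was chosen with the knockdown and control values known, because Tpm4 was one of the few genes called between the groups. The levels, shares and fold changes of the members are therefore given as a description, without a p-value. The data were polyadenylated RNA of satellite cells, which are muscle stem cells, isolated from hindlimb of C57BL/6 mice. The cells were cultured in F10 medium with 10% HS and P/S. In 2 samples siRNA was directed at LncMyod, a non-coding RNA, and 2 others got control siRNA. All were harvested 48 h later. The controls carry the same treatment text as the knockdown samples, with LncMyod as target, so the groups rest on titles, descriptions and treatment tags. With 0 rows named LncMyod, the target itself was not analysed here. The labels do not say whether replicates are separate cultures or animals, so their spread may be technical.

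Tropomyosins are coiled-coil proteins that polymerise head to tail along the actin filament. In the sarcomere they carry the troponin complex and control the access of myosin to actin. Outside the sarcomere they mark actin filaments of different kinds and affect which motors and severing proteins act on them. Alternative promoters and exons give most of these genes several products, while only 1 of the 2 annotated transcripts of Tpm4 is coding. Tpm1 and Tpm2 supply most sarcomeric tropomyosin of fast muscle, Tpm3 supplies slow fibres and the cytoskeleton, and mouse Tpm4 is mainly a cytoskeletal form of dividing and migrating cells.

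The coding sequences are alike enough that it matters whether a read can be told to its gene. In GENCODE M21 on GRCm38, identity over the aligned longest coding sequences ran from 65.9% for Tpm2 and Tpm4 to 76.3% for Tpm1 and Tpm3. The most conserved window of 60 bases had 48 bases the same in all 4 genes. It is shown as the hardest place to tell the members apart, 5′ to 3′, with bases that differ from Tpm4 in capitals.
Tpm1: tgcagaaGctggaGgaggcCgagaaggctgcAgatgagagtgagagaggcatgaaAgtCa
Tpm2: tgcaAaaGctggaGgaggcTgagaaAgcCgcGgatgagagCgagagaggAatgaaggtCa
Tpm3: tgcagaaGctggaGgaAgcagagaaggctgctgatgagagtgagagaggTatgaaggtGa
Tpm4: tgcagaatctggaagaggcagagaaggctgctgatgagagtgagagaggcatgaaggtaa
Counted from the first coding base, the window begins at base 455 in Tpm1, 329 in Tpm2, 332 in Tpm3 and 221 in Tpm4. Tpm3 differed from Tpm4 at 5 of these bases, Tpm1 at 6 and Tpm2 at 10. The longest run shared without a mismatch by transcripts of different members was 37 bases, in Tpm1 and Tpm2, and it spans their start codon, in capitals here.
Tpm1 and Tpm2: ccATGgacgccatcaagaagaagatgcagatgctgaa
Runs of the other pairs were between 17 and 32 bases, all shorter than the reads of 150 nt.

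Members and copies elsewhere in the genome were closer to each other. A search of all annotated transcripts for exact runs of at least 100 bases found 2 genes outside the family. Gm7809, a processed pseudogene (chromosome 17, 21967501 to 21968242, minus strand), carries the Tpm4 coding sequence from its first base, with 97.2% identity and 21 mismatches over 740 aligned bases. Its longest run identical to Tpm4 has 254 bases, all coding (bases 488 to 741 of 744), and is longer than a read.
Tpm4 and Gm7809: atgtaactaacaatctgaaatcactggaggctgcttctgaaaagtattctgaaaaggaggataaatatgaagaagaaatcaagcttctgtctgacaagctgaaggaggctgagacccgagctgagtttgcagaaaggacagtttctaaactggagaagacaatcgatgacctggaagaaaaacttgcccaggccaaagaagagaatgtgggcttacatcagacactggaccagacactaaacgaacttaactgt
Tpm3-rs7 (chromosome 14, 113314608 to 113316754, plus strand) is an intronless copy annotated as coding. It is 99.4% identical to a Tpm3 transcript over 2102 bases, with 13 mismatches and an identical run of 628 bases. Reads that lie within such an identical stretch match either locus, so the rows of each pair are uncertain at that scale.

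Tpm4 was lower in the knockdown libraries. Its row (ENSMUSG00000031799, chromosome 8, 72134975 to 72153142, plus strand) had 862 and 822 FPKM (fragments per kilobase, scaled to sequencing depth) in control replicates 1 and 2, and 460.1 and 440.7 in the knockdown replicates. The groups did not overlap, and the gap between them was far wider than the spread within either. The means were 450.4 ± 13.7 FPKM in knockdown and 842 ± 27.9 in control (SD, n = 2), 1.87-fold higher in control. The fitted log2 fold change (of log2(FPKM + 1), knockdown minus control) was -0.90 ± 0.076 (SE). In bulk RNA, fewer cells of a type and less RNA per cell cannot be told apart.

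Tpm4 was among the most abundant genes of these cells. By mean FPKM it ranked 46 of all rows. Of the 46 genes at this level or above, Tpm4 included, 0 had a lower fold change than Tpm4. Among all 10900 genes tested, 44 had a lower one. The family was chosen with this fold change known, so its ranks are a description and lend it no support. The Tpm4 row rests on about 37152 and 39864 reads of 150 nt in knockdown replicates 1 and 2, and 74293 and 70644 in control replicates 1 and 2, as estimated from the smallest step between values. Counting error is thus small beside the spread between libraries.

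In the limma fit across all 10900 genes, 0.0459% were called lower and 0.00917% higher at an adjusted p under 0.05. Tpm4 was the 1 member of 4 called, which is the value that chose the family. The direction was largely fixed beforehand. A replicate block, the filters and the trend leave the fold change as it is. Since the groups did not overlap, only rescaling the libraries could have reversed it. The call depended on the fit. Of 13 alternatives, 8 kept it and all 13 gave a negative value, from -0.93 to -0.84. It ended with a replicate block, without the filter on low values, and without limma's trend. It also ended without control replicate 1 (-0.87) and without control replicate 2 (-0.93), where a lone control is assumed to vary like the knockdown pair.

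Tpm1 differed between the groups by less than the spread within the knockdown pair. Its row (ENSMUSG00000032366, chromosome 9, 67022590 to 67049406, minus strand) was at 239.7 and 247 FPKM in control replicates 1 and 2, and 225 and 243 in the knockdown replicates. The libraries overlapped, and knockdown replicate 1 was the lowest. The log2 fold change was -0.06 ± 0.085 (SE), with a 95% interval of -0.26 to 0.15. It was 0.0012 with quantile normalization, so its sign is not settled.

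Tpm2 varied more within a group than any other member. Its row (ENSMUSG00000028464, chromosome 4, 43514711 to 43523765, minus strand) was at 213 and 151 FPKM in control replicates 1 and 2, and 124 and 161 in the knockdown replicates. The groups overlapped, since knockdown replicate 2 lay above control replicate 2, and control replicate 1 stood highest. The SD was 26.7 FPKM in knockdown and 43.8 in control (n = 2), against a difference of means of -39.1. The log2 fold change was -0.34 ± 0.20 (SE), with a 95% interval of -0.82 to 0.14. Control replicate 1 and knockdown replicate 1 set most of it: without them it was -0.09 and -0.15. Without control replicate 2 and knockdown replicate 2 it was -0.59 and -0.53.

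Tpm3 was the least abundant member by FPKM and had the smallest spread. Its row (ENSMUSG00000027940, chromosome 3, 90072649 to 90100902, plus strand) had 84.4 and 86.2 FPKM in control replicates 1 and 2, and 89.7 and 92.0 in the knockdown replicates. The groups did not overlap, but the difference was small: 90.9 ± 1.62 FPKM against 85.3 ± 1.26 (SD, n = 2). The log2 fold change was 0.09 ± 0.091 (SE), with a 95% interval of -0.13 to 0.31. By this count 1 member of 4, Tpm3, lay above both controls in both knockdown libraries, where 22.1% of all genes tested did, and 1, Tpm4, lay below both, where 16.3% did.

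**Figure D1:**
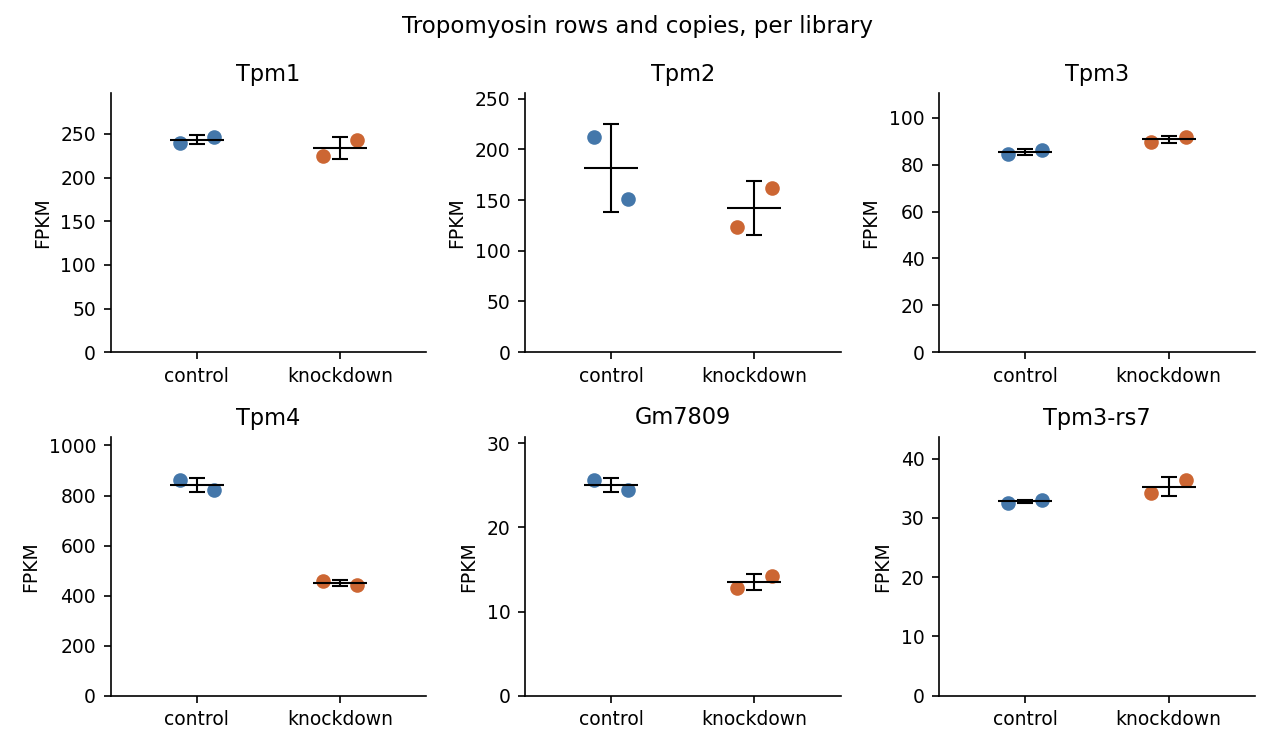
FPKM of the 4 tropomyosin rows and the 2 copies in each library (points, control blue and knockdown orange), with the group mean and SD (bars, n = 2); each axis starts at 0. Tpm4 and Gm7809 are lower in knockdown, at 450.4 against 842 and 13.5 against 25.1 FPKM, while Tpm1, Tpm3 and Tpm3-rs7 are nearly level and the Tpm2 libraries overlap.

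The copies had the same pattern as their parent genes. Gm7809 had 25.6 and 24.5 FPKM in control replicates 1 and 2, and 12.8 and 14.2 in the knockdown replicates. The groups did not overlap, and the log2 fold change was -0.85 ± 0.13 (SE), close to that of Tpm4. By limma, Gm7809 had an adjusted p of 0.265 and did not pass. In reads, the Gm7809 row was 0.940% and 1.08% of the Tpm4 row in knockdown and 1.002% and 1.003% in control, nearly the same proportion in every library. Tpm3-rs7 had 32.6 and 33.0 FPKM in control and 34.1 and 36.4 under knockdown, and was 13.4% to 13.9% of the Tpm3 row in reads. Whether reads of the copies come from their own loci was not tested. Adding the copy's reads to its parent left the log2 fold changes at -0.90 for Tpm4 and 0.09 for Tpm3.

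Other loci within the Tpm4 gene were near 0. Gm26586, annotated as antisense, shares 134 bases, or 6.08%, of the exonic Tpm4 sequence on the other strand. It had 0.0676 and 0.425 FPKM in control and 0.222 and 0.248 under knockdown. Gm16091, also on the other strand, shares 0 exonic bases and had 0 and 0.118 FPKM in control and 0.778 and 0.729 under knockdown. No strand setting is given for these values, so sense and antisense reads cannot be told apart there. For Tpm1, Tpm2 and Tpm3, 0 other annotated genes lay within the gene.

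**Figure D2:**
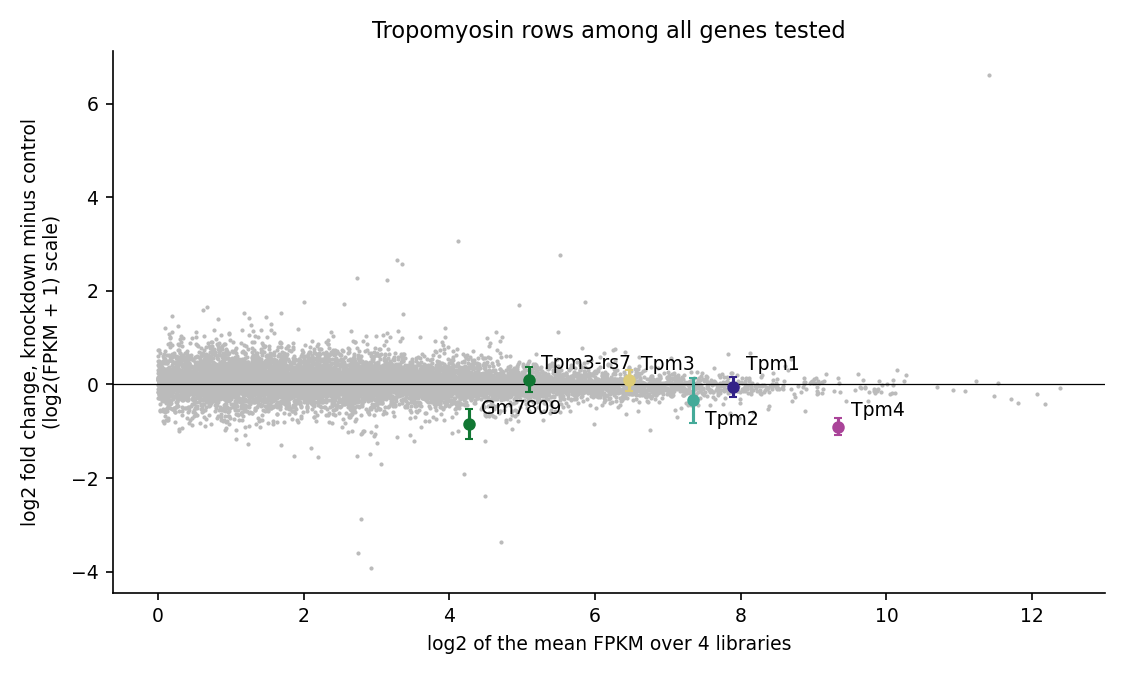
Log2 fold change (knockdown minus control, log2(FPKM + 1) scale) against log2 of the mean FPKM for the 10900 genes tested (grey), with the tropomyosins and copies marked and bars for the 95% interval. Tpm4 stands at -0.90 at the lower edge of the abundant genes, with Gm7809 at -0.85 far to its left, and Tpm1 and Tpm3 lie close to 0.

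The order of the members depends on the length that levels are divided by. The deposited gene values multiplied by the combined length of all annotated exons came out as whole multiples of the precision with which single-transcript rows are written, within a tolerance of 0.1, in 97.8% of 36454 values of genes with several transcripts. With the longest transcript in place of that length, the share was the 20% that chance gives. A gene value here is thus its reads over all its exons together, and a gene with many alternative exons is divided by more than any 1 of its transcripts. That combined length is 6485 bases for Tpm1, with 21 transcripts and a longest one of 2890, and 6085 for Tpm3, with 16 transcripts and a longest one of 2374. It is 2909 bases for Tpm2, with 6 transcripts and a longest one of 2175. For Tpm4, with 2 transcripts, it is 2203 against 2128, so its value is hardly reduced. Fold changes of 1 gene between libraries hardly depend on this length.

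By deposited FPKM the order was Tpm4, Tpm1, Tpm2 and Tpm3 in all 4 libraries, with no overlap between neighbours within a group. Recomputed per longest annotated transcript, control cells had 872 ± 28.8 for Tpm4 and 546 ± 11.5 for Tpm1 (SD, n = 2). Tpm2 and Tpm3 followed with 243 ± 58.6 and 219 ± 3.24, and overlapped. In knockdown cells the order on that scale was Tpm1 with 525 ± 28.5, Tpm4 with 466 ± 14.2, Tpm3 with 233 ± 4.14 and Tpm2 with 191 ± 35.7 (SD, n = 2), with no overlap between neighbours. Tpm4 therefore led in both controls and Tpm1 in both knockdown libraries. The transcript mix behind each gene value is not given, so neither scale is a count of molecules.

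The family total was lower in knockdown, and Tpm4 made up most of the gap. Summed over the 4 genes, the libraries had 1398 and 1306 FPKM in control and 899 and 937 under knockdown, a log2 ratio of means of -0.56. The mean was 918 ± 27.3 FPKM in knockdown and 1352 ± 65.3 in control (SD, n = 2), and Tpm4 accounted for 90.2% of the gap. In reads the log2 ratio was -0.37 and the Tpm4 part 86.1%. The other 3 genes together had 537 and 484 FPKM in control and 439 and 497 under knockdown, and these groups overlapped.

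As a share of the family, Tpm4 made up 61.6% and 63.0% of summed FPKM in control replicates 1 and 2, and 51.2% and 47.0% in the knockdown replicates. The difference of means was -13.2 percentage points. Reads were taken as FPKM times the combined exon length, and are not corrected for transcript length. In reads, the Tpm4 share was 30.0% and 27.1% in knockdown and 41.4% in each control, a difference of -12.8 points. The Tpm1 share of FPKM was 25.1% and 25.9% in knockdown against 17.1% and 18.9% in control, and that of Tpm3 was 9.99% and 9.82% against 6.04% and 6.60%. A share of a total that Tpm4 dominates goes up when Tpm4 goes down, and the FPKM of Tpm1 and Tpm3 differed little between the groups. Tpm2 had 13.8% and 17.2% in knockdown and 15.2% and 11.5% in control, and its groups overlapped. Within a library, the Tpm4 row held 0.694 and 0.616 times the reads of Tpm1 in knockdown and 1.22 and 1.13 times in control.

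**Figure D3:**
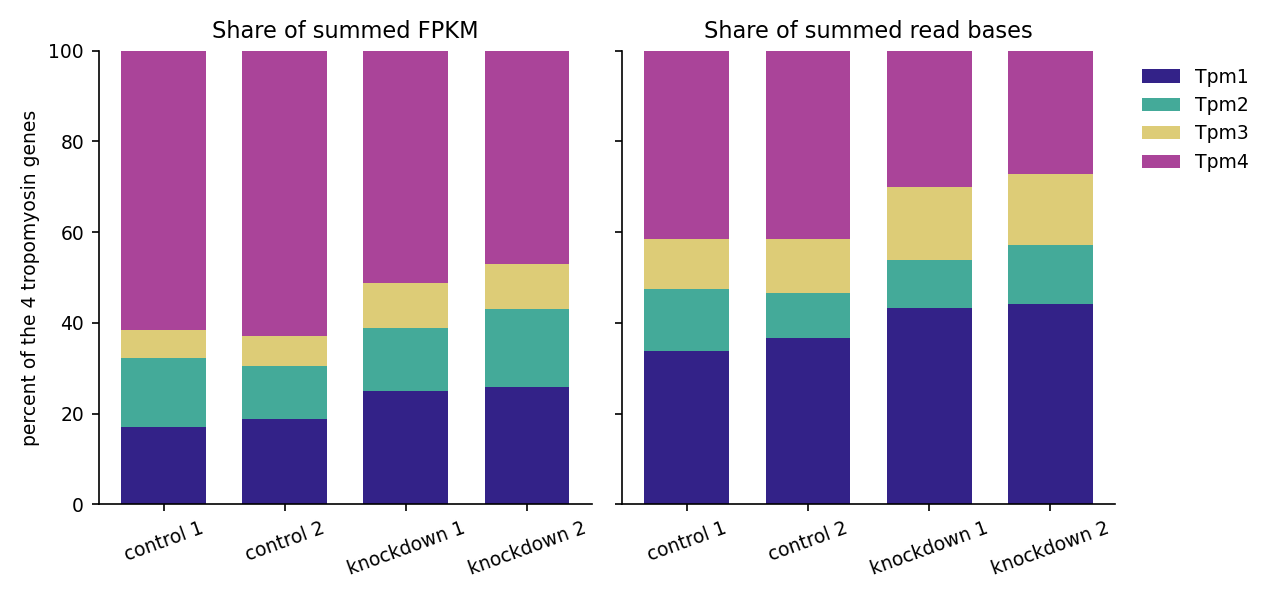
Share of each tropomyosin gene (colours) in the family, per library, as percent of summed FPKM (left) and of summed read bases (right). The Tpm4 part is smaller in both knockdown libraries on each scale, at 49.1% against 62.3% of FPKM and 28.6% against 41.4% of read bases by group mean.

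The genes most like each member over the 4 libraries were found among 2830 other genes whose mean reached 20 FPKM. The measure was the largest difference, in any library, between log2(FPKM + 1) values centred on the mean of the 4. Tpm4, whose difference between the groups chose the family, had 0 genes within 0.1 of it. Nearest were Cirbp, a cold-inducible RNA-binding protein, at 0.111, Clptm1 at 0.176 and Necap1, an endocytic adaptor, at 0.181. Gm7809, the copy of Tpm4, was not among the genes searched, because its mean was below 20 FPKM. Cirbp had 36.6 and 34.1 FPKM in control and 19.3 and 20.2 under knockdown. Tpm2 had 2 genes within 0.1, Elp5 at 0.064 and Slc35a1 at 0.092, followed by Actr3, a subunit of the Arp2/3 actin nucleator, at 0.109. Actr3 had 141 and 90.2 FPKM in control and 85.8 and 100.4 under knockdown, with control replicate 1 highest as for Tpm2. The flat profiles of Tpm1 and Tpm3 were common, with 544 and 440 genes within 0.1. Nearest were Tmem43, Eif3f and Cct8 for Tpm1, and Ahsa2, Smc1a and Srsf6 for Tpm3. Over 4 libraries such likeness is a description only.

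Genes that work on the same filaments were read from 8 lists with 88 tested genes, chosen by role but with earlier results of these data known. By limma over all genes, 0 of 88 passed. At an unadjusted p under 0.05 there were 18, or 20.5%, against 7.08% of all genes tested. The median log2 fold change was 0.08 over the 88 genes and 0.03 over all genes tested. Of the 13 alternatives, 12 also called 0 of these genes. Without knockdown replicate 1 the skeletal actin Acta1 was called lower, and with all libraries it had 5326 and 5178 FPKM in control and 4888 and 3151 under knockdown (adjusted p 0.7007).

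For the pointed-end and troponin partners of tropomyosin in the sarcomere, the list medians turned positive without knockdown replicate 2. The troponin median also did so without control replicate 2. The tropomodulins and leiomodins, which cap or nucleate filaments at their pointed ends, had 4 tested members, 0 passed, and 3 were negative, with a median of -0.46. Lmod3 had 97.1 and 88.6 FPKM in control and 74.8 and 57.9 under knockdown (limma adjusted p 0.619). Lmod2 had 6.71 and 5.69 against 5.33 and 3.49, and Tmod1 had 3.60 and 2.90 against 4.01 and 0.799. Without knockdown replicate 2 the median of the list was 0.03, and that library is the lower of the knockdown pair for Lmod3, Lmod2 and Tmod1. Troponin subunits had 7 tested members, 0 passed, and 4 were negative, with a median of -0.10. That median was 0.17 without knockdown replicate 2, 0.06 without control replicate 2, -0.39 without knockdown replicate 1 and -0.06 without control replicate 1. Tnnt2, the troponin T of cardiac and embryonic muscle, had 118 and 117 FPKM in control and 105 and 79.4 under knockdown (limma adjusted p 0.692). Tnnc1, the calcium-binding subunit of slow and cardiac muscle, had 225 and 215 against 210.2 and 148, and Tnnt1 had 64.9 and 66.2 against 73.7 and 68.4.

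The actins, on which tropomyosin lies, had 6 tested members, 0 passed, and 4 were negative, with a median of -0.14. Actc1, the cardiac alpha-actin of young myotubes, had 1367 and 1295 FPKM in control and 1056 and 891 under knockdown (limma adjusted p 0.523). Acta2, smooth muscle actin, had 3165 and 3021 against 2670 and 2576. Actg2, the other smooth muscle actin, had 5.29 and 6.71 against 8.83 and 11.4, the opposite direction. These 3, like up to 3 genes in every list, were named for their low p. That choice favours groups that do not overlap, so the separation of genes so named is not read as a result. Actb had 534 and 527 FPKM in control and 511 and 741 under knockdown, and Actg1 had 340 and 318 against 279 and 361, and for both the groups overlapped. The list median stayed negative under every alternative, from -0.18 without control replicate 2 to -0.06 without knockdown replicate 1.

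Regulators of non-muscle and smooth muscle filaments, the setting in which Tpm4 is best known, had 16 tested members, 0 passed, and 12 were positive, with a median of 0.14. Cald1, which codes for caldesmon and binds actin with tropomyosin, had 49.3 and 49.6 FPKM in control and 59.8 and 62.9 under knockdown (limma adjusted p 0.645). Tagln2, a transgelin, had 104 and 101 against 121 and 141, and Flna, the crosslinker filamin A, had 37.9 and 35.8 against 44.1 and 54.0. These 3, named for their low p, were higher in knockdown. Myl12b, a myosin light chain, had 51.9 and 53.6 against 45.8 and 33.9. Vcl, the adhesion protein vinculin, had 16.3 and 24.6 against 13.6 and 15.7. Myl12b and Vcl, chosen after their values were seen, went in the same direction as Tpm4. Among all genes tested 54.8% were positive.

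Actin turnover genes had 19 tested members, 0 passed, and 13 were positive, with a median of 0.07. Cfl2, the muscle form of the severing protein cofilin, had 81.0 and 76.1 FPKM in control and 66.1 and 59.3 under knockdown (limma adjusted p 0.645). The cyclase-associated proteins had values in opposite directions. Cap1 had 2.90 and 3.09 against 5.79 and 5.15, and Cap2, the muscle form, had 49.7 and 47.2 against 40.6 and 31.2. Nucleation and bundling genes had 15 tested members, 0 passed, and 12 were positive, with a median of 0.18, which was 0.06 without control replicate 2. Diaph1, a formin, had 1.35 and 1.22 FPKM in control and 2.70 and 2.79 under knockdown (limma adjusted p 0.607). Arpc1b, of the Arp2/3 complex, had 61.0 and 61.7 against 68.8 and 97.0, and Actr2, of the same complex, had 15.9 and 19.8 against 26.8 and 22.0.

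Splicing factors described for tropomyosin or muscle transcripts had 13 tested members, 0 passed, and 7 were positive, with a median of 0.0047, whose sign changed with quantile normalization or median scaling. Leaving out 1 library moved it more: it was 0.10 without knockdown replicate 2, 0.04 without control replicate 1, 0.02 without knockdown replicate 1 and 0.014 without control replicate 2. Ptbp1, the polypyrimidine tract protein known for repressing muscle exons of tropomyosin, had 10.1 and 12.5 FPKM in control and 21.01 and 19.5 under knockdown (limma adjusted p 0.523). Mbnl1 had 2.80 and 2.186 against 4.14 and 3.45, and Ptbp2 had 4.13 and 3.75 against 4.68 and 6.67. The gene table gives no exon or isoform, so the splicing of the members was not analysed here. The SRF, MRTF, YAP and TEAD list, regulators of cytoskeletal genes, had 8 tested members, 0 passed, and 5 were negative, with a median of -0.08. That median was 0.02 without knockdown replicate 1 and 0.00055 without control replicate 2. Wwtr1, the coactivator TAZ, had 3.71 and 3.67 FPKM in control and 5.01 and 7.47 under knockdown (limma adjusted p 0.680). Tead2 had 3.10 and 3.73 against 5.31 and 4.15, and Tead1 had 4.30 and 1.96 against 2.70 and 0.193.

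**Figure D4:**
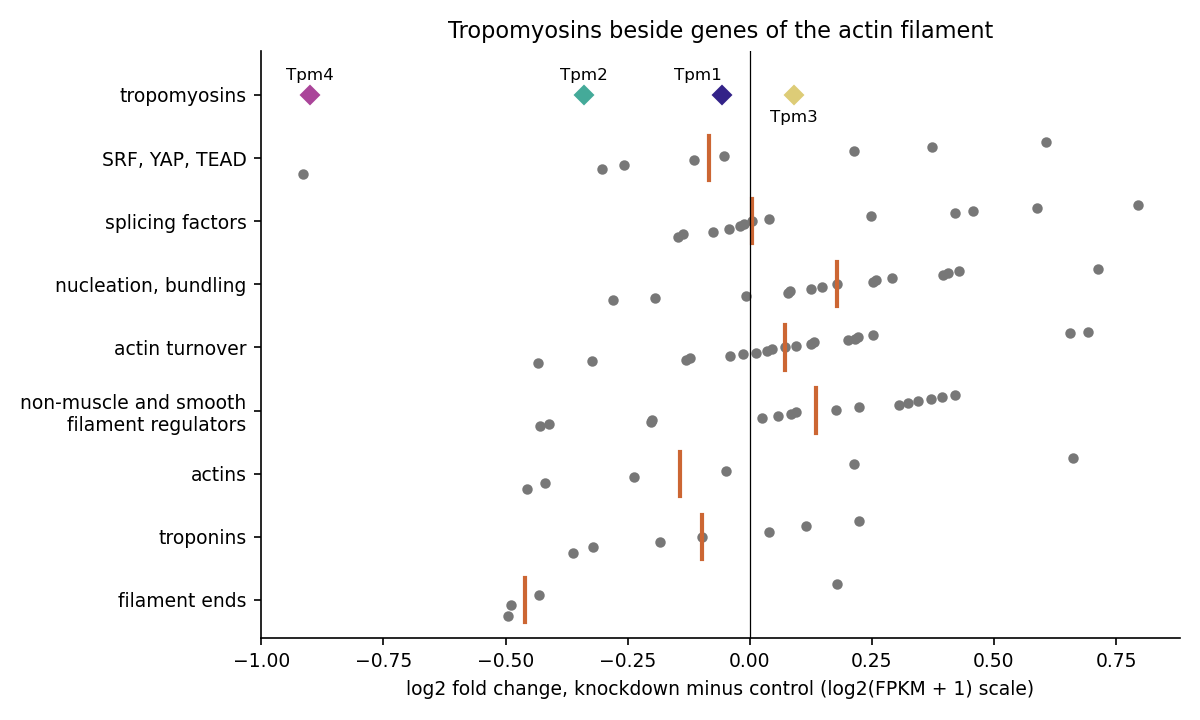
Log2 fold change (knockdown minus control, log2(FPKM + 1) scale) of the tested genes of 8 lists (grey points, orange line at the list median) and of the 4 tropomyosins (diamonds). Tpm4 at -0.90 lies lower than the genes of these lists other than Tead1, at -0.91, and the medians run from -0.46 for filament ends to 0.18 for nucleation and bundling.

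The cells expressed myogenic markers, with little of Pax7, the marker of satellite cells themselves. Myoblast and satellite cell markers were 6 of 7 above a mean of 1 FPKM, and their summed level was 3985 to 4380 FPKM in knockdown and 5103 to 5384 in control. Most of that sum was Myog, a gene of differentiating muscle cells, with 4196 and 3931 FPKM in control and 3406 and 2793 under knockdown. Myod1 had 698 and 691 against 583 and 667, also lower. For Des, Cdh15 and Itga7 the groups overlapped, and knockdown replicate 2 was the highest library. Pax7 was at 0.625 to 1.40 and Myf5 at 6.11 to 8.20. Tpm4 is also expressed by smooth muscle, fibroblast and endothelial cells. Of 9 smooth muscle and pericyte markers 5 were above 1 FPKM, with sums of 2708 to 2783 in knockdown and 3147 to 3323 in control, nearly all from Acta2. Their defining members Myh11 and Rgs5 were at 0 to 0.034 and 0 to 0.098. Of 9 fibro-adipogenic markers 4 were above 1 FPKM, with sums of 67.3 to 78.0 in knockdown and 80.3 to 89.2 in control, and Pdgfra was at 0 to 0.160. These markers differed in direction. Islr had 51.2 and 58.5 FPKM in control and 42.1 and 30.6 under knockdown, and Col1a1 had 3.76 and 4.70 against 3.20 and 2.18. Col3a1 had 23.0 and 24.4 against 27.4 and 29.4, and Cd34 had 1.36 and 1.17 against 4.52 and 4.62, both higher in knockdown. Endothelial markers were 2 of 7, with sums of 6.58 to 6.84 and 5.86 to 8.20, and Kdr and Tie1 at 0 in all libraries. Macrophage markers were 1 of 6, with sums of 2.43 to 3.40 and 2.27 to 2.83, and Ptprc and Adgre1 at 0. Schwann markers were 1 of 5, with S100b at 0 and sums of 19.1 to 45.6 and 42.4 to 47.0. The part of the lower myoblast sum (mainly Myog), smooth muscle sum (mainly Acta2) and fibro-adipogenic sum (lower through Islr and Col1a1) in the Tpm4 difference was not tested. Depth was alike, at 36.7 to 41.1 reads of 150 nt per FPKM on 1 kb, and mitochondrially encoded genes took 2.74% to 3.24% of all FPKM.

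**Figure D5:**
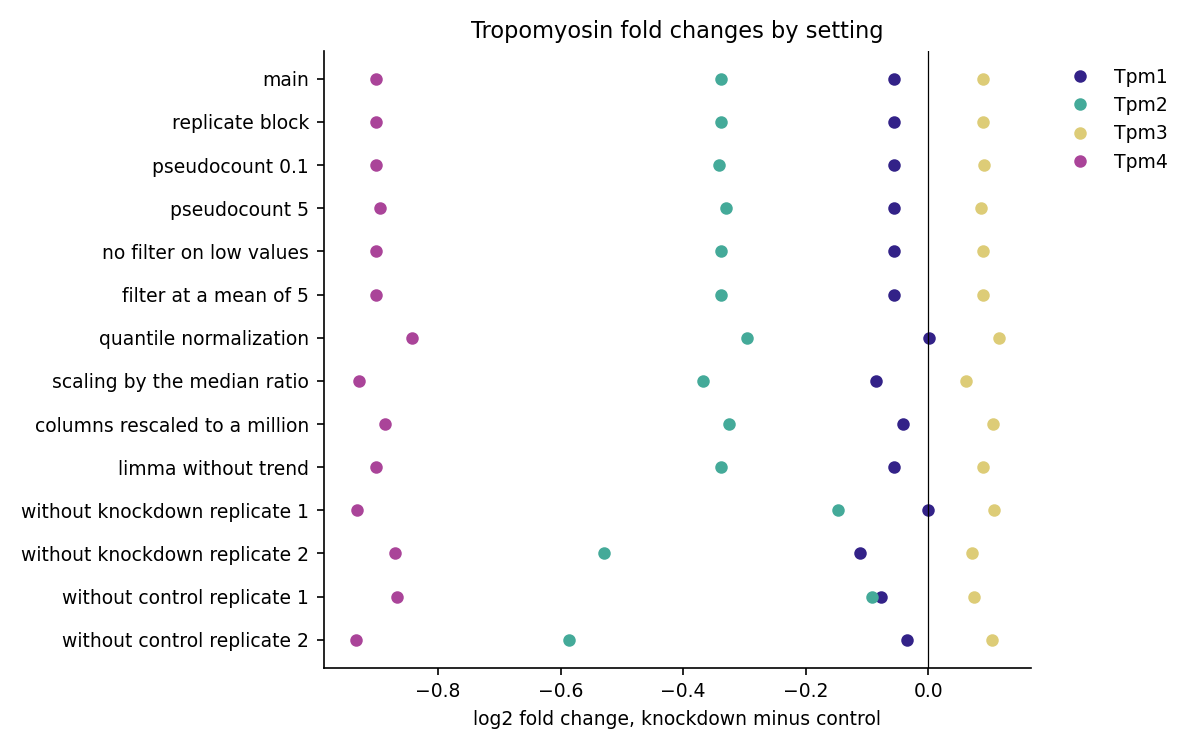
Log2 fold change (knockdown minus control) of each tropomyosin under the fit reported here (main) and 13 alternatives, from the deposited FPKM. Tpm4 stays between -0.93 and -0.84 and Tpm3 between 0.06 and 0.11, Tpm1 lies between -0.11 and 0.0012, and Tpm2 spreads from -0.59 to -0.09 when single libraries are left out.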

How the data were processed

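Polyadenylated RNA of 4 cultured satellite cell samples, 2 per group by title, was sequenced as paired reads of 150 nt after SMART-Seq v4 amplification, per the labels' protocols. The submitters' processing notes name StringTie 1.3.3, HISAT2 2.1.0, SAMtools 1.3, Trimmomatic 0.36, bcl2fastq 2.19 and the build mm10, with no roles given. Strand setting and annotation release: not given in the sources used here. The authors deposited an FPKM value for each gene in each sample, a unit inferred from the numbers themselves. The values behave as reads over the union of a gene's GENCODE M21 exons, and 54409 of 54446 identifiers were in that release.

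Genes whose mean reached 1 FPKM (10900) were tested with limma 3.58.1 (R 4.3.3, mean-variance trend) on log2(FPKM + 1), two-sided, with Benjamini-Hochberg adjustment over all of them and a threshold of 0.05. The fit was also run on data simulated from its own fitted spreads. That run assumes the model, so nothing is concluded from it. Depth came from the step between values of genes with 1 exon: 87.3% to 88.0% of these values, as bases, were whole within 0.1, where chance gives 20%. Python 3.11.15, Biopython 1.88 and MAFFT 7.526 were used for sums, shares, sequences and plots.

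The members, gene lists and rules were chosen with earlier results of these data known. Named were the 4 members, rows sharing sequence with them, the 3 genes most like each, and per list any gene past the threshold and up to 3 others with the lowest p. Acta1, Actb, Actg1, Myl12b, Vcl and the marker genes given were chosen after their values were seen. Alternatives were a replicate block, other pseudocounts, filters and scalings, no trend, and leaving out each library.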

Additional observations from a re-analysis of the deposited data

How the results depend on the processing

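The direction of Tpm2, Tpm3 and Tpm4 was the same under all 13 refits, while that of Tpm1 changed with quantile normalization. Several refits could not have changed it. The replicate block, the filters and the trend do not alter a fold change. Leaving out 1 library cannot reverse Tpm3 or Tpm4, whose groups did not overlap. Most other values moved by less than their own SD between replicates, a limit that is widest for Tpm2 among the members. Within that limit the Tpm2 log2 fold change ran from -0.59 to -0.09. The Tpm2 share difference of 2.12 points was 0.13 in read bases, and 0.29 to 3.95 with 1 library left out. The log2 fold change of Tpm3 moved by more than its SD (0.11 with quantile normalization, 0.062 with median scaling). So did that of Tpm4 (-0.84 with quantile normalization) and some shares of the family. The Tpm1 share differed by 7.47 points, and by 8.53 with values times the longest transcript; since the values are per union of exons, that product is not a share of reads, and read bases gave 8.39. The Tpm3 share differed by 4.31 points in read bases and by 4.82 per longest transcript, against 3.58. Read bases, their values per longest transcript, and copy reads added to the fold changes were chosen after seeing the data.

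The number of genes called, 5 lower and 1 higher, was less stable. Lower calls were 2 with the replicate block, 0 without the filter and 3 without the trend. Higher calls were 0 without the filter and 2 with a pseudocount of 0.1, median scaling or columns rescaled to 1 common total. Leaving out a library gave 2 to 11 lower and 2 to 4 higher. Without the filter, where 0 were called by limma, 1508 genes had an unadjusted p under 0.05. The replicate numbers share no stated culture, and the replicate differences of the groups correlated at -0.02 across genes. With the replicate block Tpm4 kept -0.90 and lost its call. Among the pathway genes, Tmod1 ran from -1.23 without knockdown replicate 1 to 0.24, the opposite sign, without knockdown replicate 2.

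With 2 libraries per group, the 95% intervals of Tpm1, Tpm2 and Tpm3 leave changes of the size of their bounds undetected.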
